A study of Caenorhabditis elegans with 4 samples.

Results

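The MRG-1 peaks on the X chromosome of *Caenorhabditis elegans* early embryos are described here. They are all peaks on X in 3 deposited lists: 154 of the 3158 nuclear peaks of replicate 1, 248 of the 2875 of replicate 2 and 853 of the 14479 of a list made for the whole series. Each series-wide X peak was then placed in 1 of 4 classes, by whether it shared at least 1 bp with peaks of both replicate lists, of replicate 1 only, of replicate 2 only or of neither.

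The embryos were wild-type N2, a mixed population of males and hermaphrodites, kept at 20 °C. MRG-1 was precipitated with the antibody SDQ3927 in 2 libraries, and 2 input DNA libraries were made beside them, which are not used here. Nothing in the labels says that ChIP replicates 1 and 2 are separate cultures, and their spread may therefore be technical. Each library pools many embryos of both sexes, and a weaker peak in all cells cannot be told apart from a strong peak in fewer cells.

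MRG-1 is a chromodomain protein of the MRG15 family, whose members in yeast, flies and mammals read methylated histone H3 lysine 36 over transcribed gene bodies. In worms it is supplied by the mother and is needed for germ cells to survive and to keep X-linked genes silent. The worm X carries few genes that are active in the germline, and in hermaphrodites its transcription in the body is lowered by the dosage compensation complex. MRG-1 is known as a protein mainly of the autosomes.

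Positions are those of WormBase WS220, counted from 1. No genome or annotation of that build was used, so the regions are given by position, with no gene names and no sequence. The score is the authors' peak score, which no file header defines, and read depth is unknown. Scores are given as a rank percentile within the whole list they come from, where 100 is the strongest peak. Replicates are 2 in every comparison and peaks of a list are not independent samples, so no difference below was given a p-value. Shares carry exact 95% binomial intervals, which cover counting error only.

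The replicate lists differed in how much of X they marked. X held 4.88% of the peaks of replicate 1 and 8.63% of those of replicate 2, while replicate 2 had fewer autosomal peaks, 2627 against 3004. X peaks covered 301 kb in replicate 1 and 452 kb in replicate 2, which was 2.13% ± 0.602 of X (SD, n = 2). The series-wide X peaks were more numerous and narrower and covered 322 kb. The lists had 199 kb of X in common, 65.9% of the replicate 1 bases and 44.0% of the replicate 2 bases.

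Most replicate 1 peaks on X were found again, and a minority of the replicate 2 peaks were. Of the 154 X peaks of replicate 1, 113 overlapped a replicate 2 peak (73.4%, 65.7 to 80.2), and the share over all nuclear peaks of that list was also 73.4%. Of the 248 X peaks of replicate 2, 113 overlapped a replicate 1 peak (45.6%, 39.3 to 52.0), against 79.8% of all nuclear peaks of replicate 2. On single autosomes this second share ran from 81.1% on chromosome I to 85.1% on V. The 113 peaks matched one to one, so the 154 X peaks of replicate 1 set a ceiling on the share of the 248. Replicate 1 had fewer peaks than replicate 2 on X but more on the autosomes, 3004 against 2627. The replicate 2 shares on X and elsewhere are therefore not directly comparable. How much of their difference follows from these counts was not tested. What X had beyond the 113 was 135 peaks of replicate 2 and 41 of replicate 1.

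The unmatched X peaks of replicate 2 had a median width of 1177 bp and a median score rank percentile of 20.9. Matched X peaks of replicate 2 had a median width of 1947 bp and a percentile of 44.1. Few of either lay in the top 25% of the list by score, 0 of 135 and 1 of 113. Unmatched autosomal peaks of replicate 2 were as weak, with a median percentile of 17.6 and a median width of 1524 bp. In the weakest 25% of the replicate 2 list 14 of 98 X peaks were matched (14.3%), against 329 of 620 autosomal peaks (53.1%). In the next 25% the shares were 55.4% of 112 X peaks and 80.9% of 607 autosomal peaks. In the 25% above that they were 97.3% of 37 and 96.2% of 682, so the lower share on X lay among the weaker 50% of the list. Replicate 1 went the other way in its weakest 25%, with 58.9% of 73 X peaks matched and 38.0% of 716 autosomal peaks. In its next 25% the shares were 81.8% of 55 and 62.0% of 735, and above that 100.0% of 23 and 92.7% of 766. Its strongest 25% held only 3 X peaks, of which 2 were matched, against 97.6% of 787 autosomal peaks. The equal shares over the whole replicate 1 list thus did not hold within score ranges.

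Few unmatched peaks lay within 5 kb of a peak of the other list. The nearest peak of the other replicate lay at a median distance of 20.2 kb from the 41 unmatched peaks of replicate 1 and 32.6 kb from the 135 of replicate 2. It lay within 5 kb for 10 and 23 of them. Most positions on X are distant from a sparse list, and X had 14.0 peaks per Mb in replicate 2 and 8.69 in replicate 1. No expected distance was computed, so these distances are not a trait of the unmatched peaks. Nearly all unmatched X peaks held a series-wide peak, 40 of 41 in replicate 1 and 134 of 135 in replicate 2. This was near the general share, since 43 of 798 and 6 of 447 unmatched autosomal peaks held none. How the series-wide list was combined is not stated. It may rest on the same libraries, so a series-wide peak is no independent support for an unmatched one.

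Within the 113 matched X pairs, replicate 2 drew the same regions wider. Its peak was the wider one in 95 pairs (84.1%, 76.0 to 90.3), with median widths of 1544 bp in replicate 1 and 1947 bp in replicate 2. On the autosomes replicate 2 was wider in 1247 of 2206 pairs (56.5%), with 54.3% to 58.9% on single chromosomes. The replicate 1 peak lay wholly inside the replicate 2 peak in 79 X pairs (69.9%) and in 35.3% of autosomal pairs. The reverse nesting was seen in 10 X pairs.

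Score ranks were also compared within the pairs. The rank percentile was higher in replicate 2 in 81 of 113 X pairs, with a median difference of 11.6 percentile points, whereas on the autosomes the median difference was -0.671. In the replicate lists weak peaks were more common on X, with median percentiles of 27.1 and 29.6 against 51.8 and 53.3 on the autosomes. Pairs were therefore also compared at similar mean rank, a split made after the values were seen. At mean percentiles from 25 to 50, replicate 2 was wider in 53 of 62 X pairs (85.5%) and in 292 of 518 autosomal pairs (56.4%). At 50 to 75 it was wider in 24 of 26 X pairs and in 458 of 762 autosomal pairs (60.1%). Only 2 X pairs ranked above 75, and replicate 2 was wider in 0 of them.

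**Figure D1:**
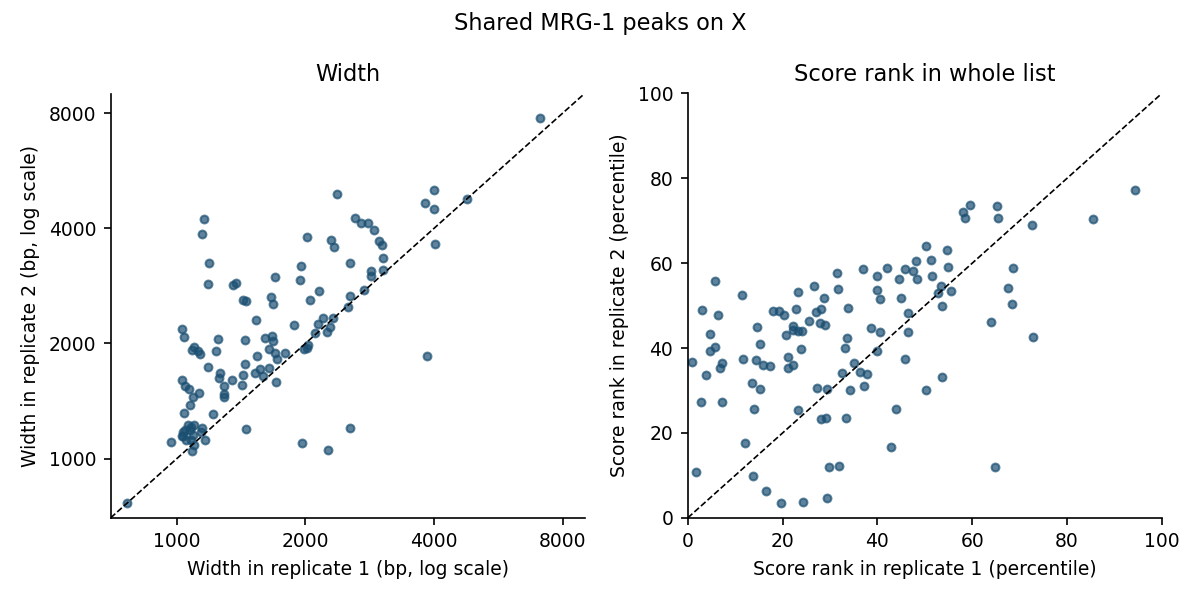
Width in bp on log axes (left) and score rank percentile within the whole list (right) of the 113 matched X peaks, replicate 1 on the horizontal and replicate 2 on the vertical axis. Each point is 1 pair and the dashed line marks equality; 95 pairs lie above it for width and 81 for rank.

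Widths of the pairs were ordered alike on X and the autosomes, and scores less so on X. Across the 113 X pairs Spearman's rho was 0.510 for the scores and 0.703 for the widths. Across the autosomal pairs rho was 0.718 and 0.706. These are descriptions over peaks of the same pair of libraries, and X spans a narrower range of scores. The midpoints of the matched X peaks differed by a median of 119.5 bp, and 92 of 113 lay within 500 bp of each other.

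The strongest matched region of X stood apart from the next. By the mean rank of the replicates it was X from 15806865 to 15811630 in replicate 1, where its score was 1915 and its percentile 94.3. In replicate 2 it ran from 15806856 to 15811617, with a score of 1204 and a percentile of 77.3. Its ends moved so little that the midpoints differed by 11.0 bp. A single series-wide peak of 3651 bp, from 15807501 to 15811151, filled 76.6% of it, and this was the widest series-wide X peak that both replicates overlapped.

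The second lay close to the left end of X, at 45465 to 49478 in replicate 1 and at 45581 to 49221 in replicate 2. Its percentiles were 85.5 and 70.5, and it was wider in replicate 1, at 4014 bp against 3641 bp. These first 2 regions are the X pairs whose mean percentile exceeded 75, at 85.8 and 78.0. They differ from most X peaks in being ranked higher in replicate 1 than in replicate 2.

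The third to eighth regions were ranked between 58.1 and 72.6 in replicate 1 and between 69.0 and 73.7 in replicate 2. The third ran from 5840598 to 5843496 in replicate 1, with percentiles of 72.6 and 69.0. It held the series-wide X peak with the highest score among those overlapped by both replicates, 841 bp from 5840729 to 5841569, with a score of 58.9 and a percentile of 98.3 in that list. The fourth, from 7066167 to 7069011, had percentiles of 65.3 and 73.6, and its midpoint differed by 15.0 bp between replicates. The fifth was broader, from 14101546 to 14105549, with 4004 bp in replicate 1 and 4493 bp in replicate 2.

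Others among the 10 strongest were broken into several summits in the series-wide list. The sixth, from 11946280 to 11948889, held 5 series-wide peaks and widened from 2610 bp in replicate 1 to 4263 bp in replicate 2. The ninth, from 6088951 to 6092950, held 6, which covered 78.6% of its replicate 1 bases. The seventh and eighth, starting at 2241617 and 1854129, had percentiles of 58.1 and 58.4 in replicate 1 and of 72.1 and 70.7 in replicate 2. The tenth, from 4523495 to 4526519, had percentiles of 67.6 and 54.2.

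Width and strength picked out much the same regions, since 7 of the 10 widest pairs were also among the 10 strongest. The widest was not. Replicate 1 placed it at 4611553 to 4618615 (7063 bp) and replicate 2 at 4611013 to 4618757 (7745 bp), at percentiles of 52.8 and 52.9. Only 20.8% of its replicate 1 bases lay in the 4 series-wide peaks inside it, so it was a broad call over a few narrow summits. One of those summits, 654 bp from 4616638, was the fourth strongest of the series-wide X peaks that both replicates overlapped, with a percentile of 97.2.

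Another pair of wide regions were weak in replicate 1. The region from 16611925 to 16615734 measured 3810 and 4661 bp, at percentiles of 27.0 and 48.5 in replicates 1 and 2. The region from 3104378 to 3106753 measured 2376 and 4922 bp, at percentiles of 11.4 and 52.6. Series-wide peaks filled 9.85% of its bases in replicate 1.

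The commonest class of series-wide X peaks was the one outside both replicate lists. Of the 853, 187 overlapped both (21.9%, 19.2 to 24.9), against 42.4% of all nuclear series-wide peaks. Replicate 1 alone was overlapped by 69 (8.09%, 6.35 to 10.1), against 14.2%. Replicate 2 alone was overlapped by 177 (20.8%, 18.1 to 23.6), against 11.8%. These single-replicate shares were not adjusted for list length, 154 X peaks in replicate 1 and 248 in replicate 2. Neither was overlapped by 420 (49.2%, 45.8 to 52.6), against 31.5%. Overlap by 1 bp is met more easily where replicate peaks cover more bases. They covered 1.70% and 2.55% of X in replicates 1 and 2, against 11.8% and 11.2% of the autosomes. Wide replicate peaks also count each series-wide peak inside them. The shares for both and neither were not adjusted for either. The 5 autosomes were alike, with 41.2% to 45.8% overlapping both and 10.5% to 12.1% replicate 2 only, and X lay outside these ranges.

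**Figure D2:**
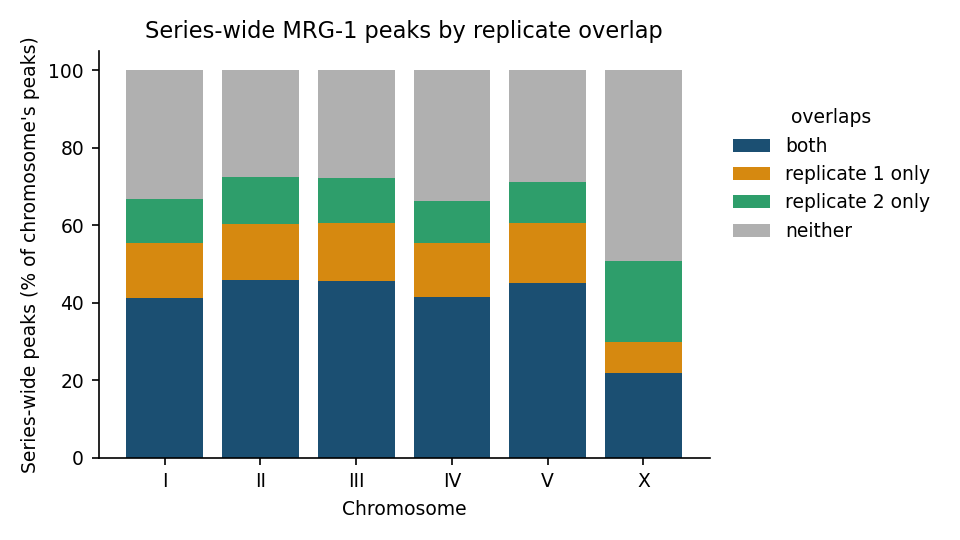
Share of the series-wide peaks of each chromosome, in percent, that overlap peaks of both replicates, replicate 1 only, replicate 2 only or neither by at least 1 bp. X has 21.9% overlapping both and 49.2% overlapping neither; the replicate 2 only share of X, 20.8%, is above that of every autosome shown.

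Classes of X peaks differed in width and in rank. Peaks overlapping both replicates had a median width of 472 bp and a median percentile of 84.5 in the series-wide list. Those overlapping neither had 238 bp and 50.1. The classes with a single replicate were alike in width, at 352 bp for replicate 1 only and 363 bp for replicate 2 only. Their ranks were not alike, with median percentiles of 51.4 for replicate 1 only and 80.5 for replicate 2 only. Overlap by 1 bp is met more easily by a wide peak, so part of the width order is built into the classes.

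The single-replicate classes differed in rank on X and had equal medians on the autosomes. In the top 25% of the series-wide list by score lay 110 of the 177 X peaks that overlapped replicate 2 only (62.1%) and 116 of the 187 that overlapped both (62.0%). Of those that overlapped replicate 1 only, 13 of 69 (18.8%) lay there. Over all classes 331 of the 853 X peaks lay there (38.8%), against 24.2% of the autosomal peaks. In this list X peaks thus ranked higher than autosomal ones, unlike in the replicate lists. On the autosomes the corresponding shares were 13.5% for replicate 2 only, 43.3% for both and 11.0% for replicate 1 only, and both single-replicate classes had a median percentile of 43.0. The difference between X and the autosomes was not tested.

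Strong series-wide peaks on X were compact. In the top 25% of that list the 331 X peaks had a median width of 383 bp, and the 3292 autosomal peaks had 1079.5 bp. Of these X peaks 35.0% overlapped both replicates, 33.2% replicate 2 only and 27.8% neither. Of the autosomal ones 78.3% overlapped both, 6.29% replicate 2 only and 8.72% neither. Peak width and the bases covered by replicate peaks were not matched between X and the autosomes. Both bear on an overlap by 1 bp, so the sets are not comparable by score alone. The comparison within score ranges was added after the values were seen.

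**Figure D3:**
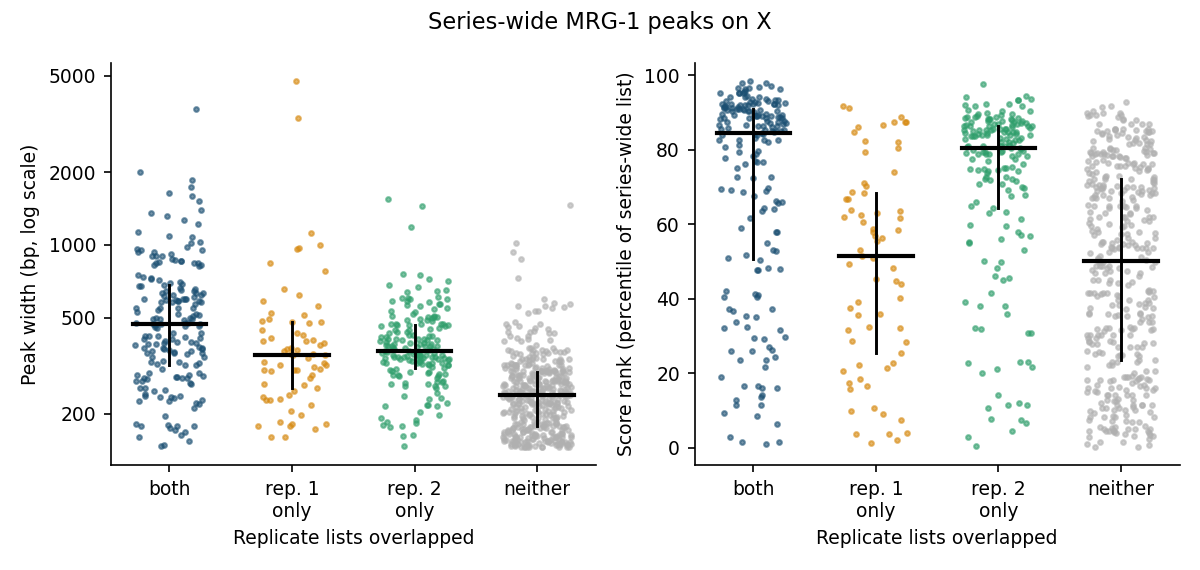
Width in bp on a log axis (left) and score rank percentile within the series-wide list (right) of the 853 series-wide X peaks by class. Points are peaks, horizontal bars medians and vertical bars the range from the first to the third quartile; the median percentiles are 84.5, 51.4, 80.5 and 50.1 from left to right.

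The widest X peaks that both replicates overlapped were, after the strongest region, 2005 bp from 10568247, 1860 bp from 14101842, 1730 bp from 47475 and 1636 bp from 7077459. By score the leading ones after the peak at 5840729 were 1030 bp from 5952698, 666 bp from 2242737, 654 bp from 4616638 and 319 bp from 4469280, at percentiles from 96.7 to 97.9. The peak at 4469280 shows that a high rank needed little width on X.

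Peaks that neither replicate overlapped reached lower maxima. Their 5 highest scores ran from 25.5 to 33.2, at percentiles from 89.9 to 92.9, and those peaks were 222 to 298 bp wide. The strongest ran from 325597 to 325894 and lay 26635 bp from the nearest replicate 1 peak. Another, from 258610 to 258831, lay 1254 bp from a replicate 1 peak. The widest of the class was 1465 bp, from 11886623 to 11888087, with a percentile of 59.7 and no replicate peak within 48826 bp.

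Replicate peaks on X were filled less by series-wide peaks than those on the autosomes. Of the bases in X peaks 46.2% in replicate 1 and 39.3% in replicate 2 lay in series-wide peaks, against 67.7% and 69.7% on the autosomes. The number of series-wide peaks per kb of replicate peak was close, at 0.850 and 0.805 on X and 0.821 and 0.815 on the autosomes. X peaks thus held about as many series-wide peaks for their length, and these were narrower. A single series-wide peak was held by 89 of 154 X peaks in replicate 1 and 165 of 248 in replicate 2, against 911 of 3004 and 762 of 2627 autosomal peaks. Its midpoint fell in the middle 50% of the replicate peak in 92.1% and 97.0% of these X peaks, close to the 96.2% and 97.8% on the autosomes.

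Along the chromosome the matched regions were spread over all of X. X was taken to end at the last peak of any list, 17.7 Mb from its left end, and its middle 50% ran from 4.43 to 13.3 Mb. The left 25% held 24 of the 113 pairs, the middle 60 and the right 25% 29. Of the 187 series-wide peaks overlapping both replicates, 98 lay in the middle (52.4%, 45.0 to 59.7). Of the 420 overlapping neither, 188 did (44.8%, 39.9 to 49.7), with 27.1% in the left and 28.1% in the right part.

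Counts by Mb ranged more widely for peaks overlapping both replicates than for those overlapping neither. In the 17 whole 1 Mb windows, series-wide peaks overlapping both numbered from 2 (3 to 4 Mb) to 22 (4 to 5 Mb), with a median of 11. Those overlapping neither numbered from 16 to 30, with a median of 24. Several peaks overlapping both can lie in 1 matched region, and matched replicate 1 peaks numbered from 2 to 11 per window. The window from 4 to 5 Mb also held the most replicate 2 coverage, 4.49%, and 11 matched pairs, as many as the window from 8 to 9 Mb. The neighbouring window from 3 to 4 Mb had 2 pairs, and 15 of its 40 series-wide peaks overlapped replicate 2 only. In the window from 16 to 17 Mb 30 of 44 series-wide peaks overlapped neither replicate.

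**Figure D4:**
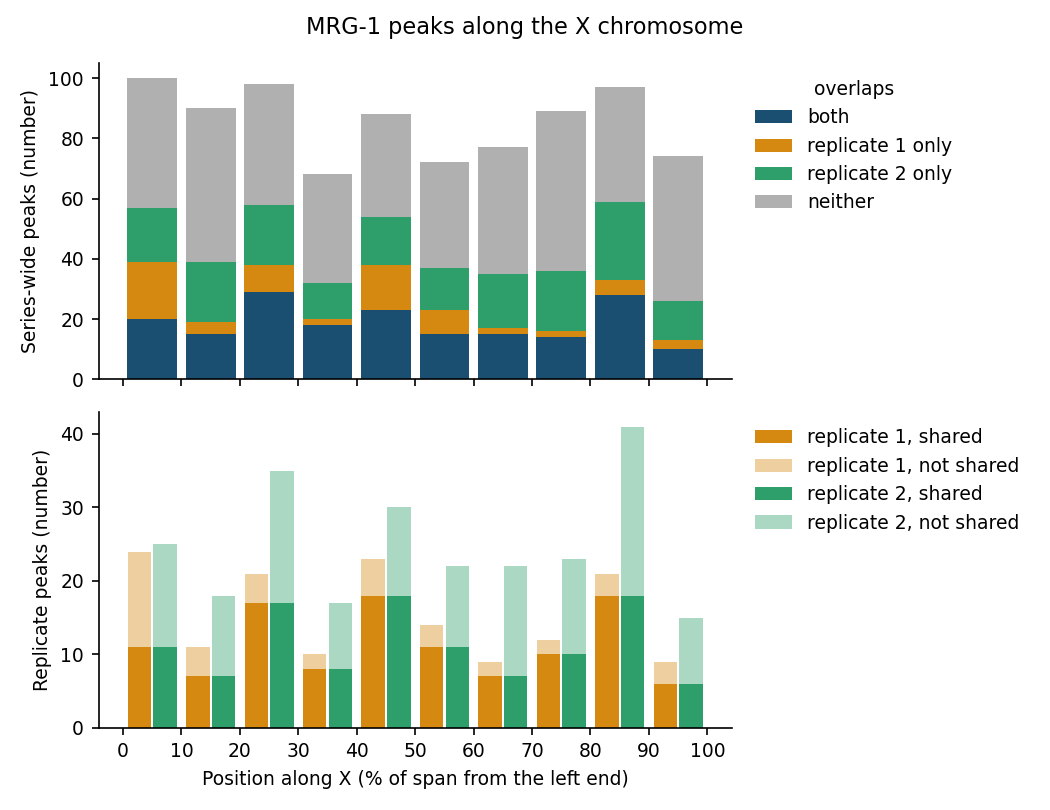
Number of series-wide X peaks by class (top) and of replicate X peaks, matched and unmatched (bottom), in bins of 10% of the X span from its left end. In the first bin replicate 1 has 13 unmatched peaks and replicate 2 has 14; in each of the other bins replicate 1 has 5 or fewer unmatched peaks.

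Replicate 2 had more X peaks than replicate 1 in 16 of the 17 windows and more coverage in 15. The exceptions lay in the first 2 Mb. In the first Mb replicate 1 covered 4.07% and replicate 2 2.94%. The excess lay in the first 400 kb, a bound chosen after the values were seen, where replicate 1 covered 37.9 kb and replicate 2 14.7 kb. Of 6 matched pairs there, 5 were wider in replicate 1, against 13 of 105 pairs beyond the first Mb. The pair from 42849 to 45395, next to the second strongest region, measured 2547 bp in replicate 1 (percentile 64.9) but 1204 bp in replicate 2 (percentile 12.0).

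The same stretch held the strongest X peak that replicate 2 lacked. It ran from 108740 to 114714 in replicate 1 (5975 bp), with a score of 775 and a percentile of 77.7, and the nearest replicate 2 peak was 47496 bp away. One series-wide peak of 4743 bp, the widest on X in that list, filled 79.4% of it. A second broad peak, from 289280 to 295689 (6410 bp, percentile 30.4), was also absent from replicate 2 and 81.6% filled. This peak, the pair from 42849 and the peak at the very start of X were named after their values were seen. Of the 69 series-wide peaks overlapping replicate 1 only, 13 (18.8%) lay in the first 400 kb, and 3 of these lay inside the peak from 289280. The whole first Mb held the same 13, and it held 65 of all 853 series-wide X peaks.

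Left ends of the autosomes had the same direction with smaller ratios. Replicate 1 bases over replicate 2 bases in the first 400 kb were 2.57 on X and 1.13 to 1.68 on the 5 autosomes. In the last 400 kb they were 0.167 on X and 1.09 to 1.93 on the autosomes. The X value rested on few peaks. Replicate 1 covered 1.16 kb there, all of it the peak from 17433791 to 17434950, and replicate 2 covered 6.93 kb. From 17 Mb to the end of X the direction was the other way, with 1.94% covered in replicate 1 and 1.60% in replicate 2. Between these ends the ratio was 0.609 on X and 1.03 to 1.07 on the autosomes. At its outermost, X began with a peak in all 3 lists, from 1 to 766 in replicate 1 and 1 to 765 in replicate 2, the narrowest X peak of each replicate list.

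Other strong peaks that the second list lacked were weaker. In replicate 1 the next was from 188180 to 190348, with a percentile of 45.8, followed by 3969160 to 3970674 (45.3), 4960061 to 4964382 (42.1) and 7309118 to 7310897 (38.5). In replicate 2 the strongest that replicate 1 lacked ran from 7498732 to 7502115, with a score of 438 and a percentile of 53.7, 19516 bp from the nearest replicate 1 peak. The others had percentiles from 45.7 to 49.0 and started at 14168333, 13594986, 15605776 and 2237118. Of these, the peak at 13594986 lay 961 bp from a replicate 1 peak and that at 2237118 lay 3003 bp from one, beside the seventh strongest pair.

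X peaks of the replicate lists were scattered singly. From one peak to the next the median distance was 72.1 kb in replicate 1 and 40.9 kb in replicate 2, against 8.16 and 11.7 kb on the autosomes. A neighbour within 5 kb was found for 24 of 154 X peaks (15.6%) in replicate 1 and 56 of 248 (22.6%) in replicate 2, against 64.8% and 60.3% of autosomal peaks. Joined at gaps of up to 5 kb, the largest X group had 2 peaks in replicate 1 and 3 in replicate 2, while autosomal groups reached 9 and 7. A list with fewer peaks per Mb has larger gaps in any arrangement, and X had 8.69 and 14.0 peaks per Mb against 36.4 and 31.8.

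**Figure D5:**
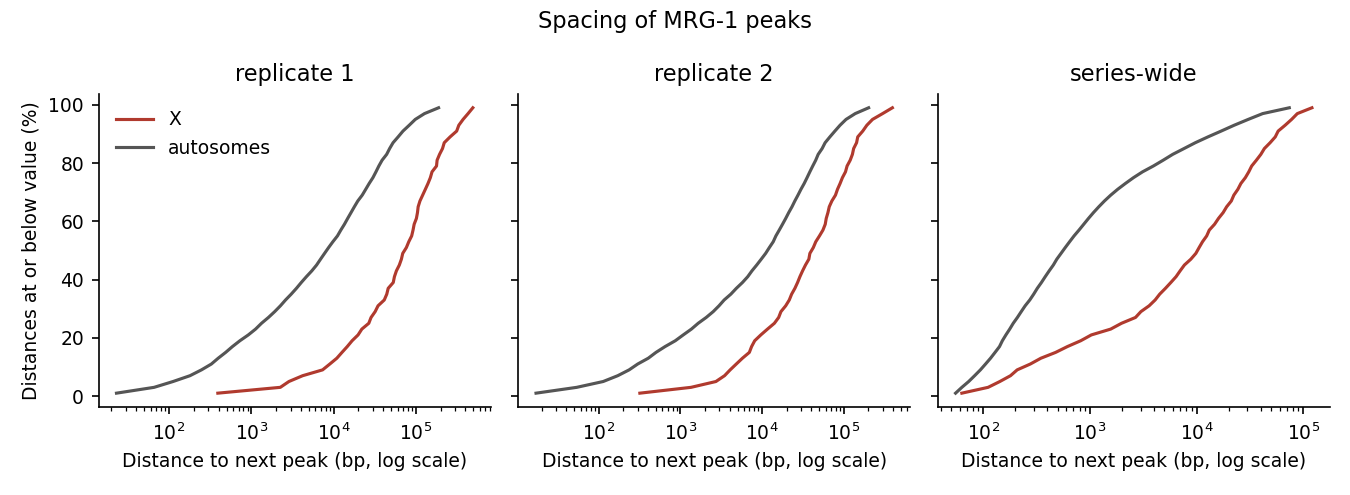
Cumulative share of distances from a peak to the next one on the same chromosome, in bp on a log axis, for X and the autosomes in the 3 lists. The X curve lies to the right in each panel, with medians of 72.1, 40.9 and 9.99 kb.

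The series-wide list was also sparser on X, with a median distance of 9.99 kb to the next peak against 0.562 kb on the autosomes. A neighbour within 5 kb was found for 57.6% of its X peaks and 94.1% of its autosomal peaks, and groups of 5 or more held 11.4% and 78.2%. At gaps of up to 5 kb its 853 X peaks formed 540 groups, 362 of them single peaks. Of 178 groups with 2 or more peaks, 77 held a peak overlapped by both replicates and 41 held only peaks overlapped by neither. Peaks overlapping both had a series-wide neighbour within 5 kb in 83.4% of cases, and those overlapping neither in 41.4%. Fragments of one replicate peak count as neighbours here, and 52 of the 113 matched replicate 1 peaks held 2 or more series-wide peaks.

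Most peaks overlapped by neither replicate lay more than 5 kb from a replicate peak. Replicate peaks are sparse on X, so this holds for many positions, and no expected distance was computed. The median distance of these series-wide peaks to the nearest replicate peak was 19.2 kb. Of the 420, 18 lay within 1 kb of a replicate peak, 90 (21.4%) within 5 kb and 100 (23.8%) more than 50 kb away. The 420 were single in 246 cases, and 39 of them stood in a group with a peak that both replicates overlapped.

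The largest groups on X each had their own makeup. The first 2 had 9 peaks. One, from 7351498 to 7361084, consisted of 9 peaks overlapping replicate 1 only, all inside 1 replicate 1 peak of 10400 bp from 7351182 to 7361581, the widest X peak of any list. That peak had a percentile of 27.2, its highest series-wide percentile was 40.3, and no replicate 2 peak overlapped it. The other, from 15606681 to 15619490, had 4 peaks overlapping both, 3 replicate 2 only and 2 neither.

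The third group, from 6089076 to 6097880, had 7 peaks, 6 of them overlapping both, around the ninth strongest pair. The remaining places fell among 7 groups of 6 peaks, of which the first by position ran from 1443027 to 1454699 and the second from 1852905 to 1858956, around the eighth strongest pair.

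The 5 longest stretches of X without a replicate peak held from 2 to 14 series-wide peaks. The longest without a peak in either replicate was 409 kb, from 5298802 to 5707435, and held 14 series-wide peaks with a median percentile of 67.2. The next were 374 kb from 12019167, 327 kb from 10570665, 278 kb from 16332545 and 276 kb from 15866771, with 12, 14, 9 and 2 series-wide peaks. The longest stretch free of peaks in all 3 lists was 189.6 kb, from 15866771 to 16056328. Others were 173 kb from 12670597, 131 kb from 6934697, which ended where the replicate 2 peak of the fourth strongest pair began, 129 kb from 14350367 and 126 kb from 6379087.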

How the data were processed

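The deposited values used were peak positions and the authors' peak score. Peaks were called with MACS in the replicate lists and MACS v2 in the series-wide list, per the file headers and source columns, on WormBase WS220. BWA and ce10 are named without role in the submitters' processing notes. Caller settings, the control, read depth and the way the series-wide list was combined are not stated there or in the headers.

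Lists were used as deposited, without the 5 mitochondrial peaks. Overlap meant 1 shared bp. Each matched replicate 1 peak was paired with the replicate 2 peak sharing most bases. Rank percentiles were taken over all nuclear peaks of a list. Quartiles, distances, groups joined at gaps of 5000 bp, windows of 1 Mb and exact 95% binomial intervals were computed with matplotlib 3.10.9, scipy 1.17.1, pandas 2.3.3 and numpy 2.4.6 under Python 3.11.15. The overlap step was run on simulated peaks, spaced wider than most series-wide X peaks, with replicate peaks made by widening series-wide ones. Every class was recovered, which this setting fixes in advance, so the run checks the code only.

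Regions were named by rule: the 10 strongest and 10 widest matched pairs, the 5 widest and 5 strongest series-wide peaks overlapping both replicates or neither, the 5 strongest unmatched peaks per replicate, the 5 largest groups and the 5 longest empty stretches. Members and rules were chosen with earlier results of these data known. Alternatives were other overlap rules, score ranges, joining distances, boundaries and each replicate left out.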

Additional observations from a re-analysis of the deposited data

How the results depend on the processing

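No result had a test, so an alternative counted as moved when its value left the 95% interval, the SD of the replicates or, for medians, the quartiles of the value reported. Of 43 alternatives, 23 stayed within and 20 moved; 6 of the 43 were chosen after seeing the data. The shares of series-wide X peaks overlapping both (21.9%) and neither (49.2%) were 6.94% and 86.9% in the top 50% of each list. Few X peaks of the replicate lists remain there, since their median percentiles were 27.1 and 29.6. These 2 shares were 16.8% and 55.6% after joining peaks at gaps of 500 bp or less. In the top 25% of the series-wide list by score they were 35.0% and 27.8%. With midpoints within 500 bp, a stricter rule, 59.7% of replicate 1 and 37.1% of replicate 2 X peaks were matched. Joining raised the median width of peaks overlapping both to 841 bp by construction. The middle-to-outer density ratio of replicate X peaks (0.984) was 1.04 in covered bases and 1.07 without the first Mb. Without a replicate it ran from 0.968 to 1.00, and the covered share of X from 1.70% to 2.55%. These values, counted among the 23, could only stay within. Each is 1 of the 2 values whose mean and SD set the range, so they say nothing about robustness. Neighbours within 1 kb were found for 3.90%, 4.84% and 35.1% of X peaks in replicate 1, replicate 2 and the series-wide list. Within 20 kb the shares were 37.0%, 56.5% and 87.0%, and in the top 50% by score, within 5 kb, 7.69%, 0% and 35.8%. Both follow from the distance or the number of peaks. Limits set by read depth cannot be given, since the files carry no depth.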
